A study of Rattus norvegicus with 107 samples.

Results

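The colon of Sprague Dawley rats was compared across birth, between foetuses at embryonic day 21 (E21) and pups at postnatal day (PND) 1. The arrays were chosen by their labels alone, and they are 5 colon samples at E21 (replicates 2 to 6) and 6 at PND 1, of 53 colon samples and, with 54 of brain, of all samples of the series. All animals were of 1 strain, and the labels name no treatment and no altered gene. The E21 pups were taken by Caesarean section on the day before birth, from 1 dam under isoflurane anaesthesia. The PND 1 pups had been born and nursed in litters that were evened out at birth. Age, dam, litter, mode of delivery and the anaesthesia of the dam therefore cannot be told apart in this comparison. The sources used here do not say how many litters gave the PND 1 pups, nor that each array holds a single pup, and p-values measure only the spread between arrays. Total RNA was read on bead arrays with 22523 probes, and the values below are quantile-normalized bead signals in arbitrary units, in which the lowest signal that counted as detected was 66.5 to 71.2 depending on the array.

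At birth the supply of placental glucose ends and a diet of milk begins, in which fat is the main fuel. Long-chain fatty acids enter mitochondria through the carnitine palmitoyltransferases and are broken down there by beta-oxidation, whose genes are targets of the fatty acid receptor PPAR alpha. Cells make cholesterol from acetyl-CoA through the mevalonate pathway, under the control of the SREBP transcription factors, and take it up from lipoproteins. The foetus lives at a low oxygen tension, and many enzymes of glycolysis are targets of the hypoxia-inducible factors. The colon of the newborn rat still carries villi and absorbs nutrients. These points are background and were not measured here.

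The epithelial genes Cdh17, Epcam, Lgals4, Vil1, Krt20 and Cdx2 and the smooth muscle gene Actg2 were detected on all 11 arrays, with mean signals of 12785 at E21 and 12241 at PND 1 for Lgals4. The hindgut gene Hoxd13 lay near the detection limit (means 72.4 and 81.3) and was detected on 4 of 5 and 5 of 6 arrays. Of the 11 arrays, 3 stood apart from their group. Replicate 4 of E21 had a median correlation of 0.971 with its group, against 0.987 to 0.989 for the other E21 arrays, and it carried transcripts of brain. The summed signal of 34 brain genes, a list written after the arrays had been seen, was 24910 on this array, 3970 to 4218 on the other E21 arrays and 4099 to 4752 at PND 1. Nrgn (neurogranin) stood at 2914 there and at 102 to 127 on the other E21 arrays. Mobp and Mbp, both genes of myelin, stood at 260.5 and 210.4 on this array, above the means of E21 brain itself (52.6 and 70.4) and below those of brain at PND 22 (2751 and 3472). The array also had the highest E21 sums of brush border genes (18190, others 10840 to 14340) and lipid uptake genes (13190, others 7112 to 8392). Its small intestine list summed to 4024 (others 2631 to 2858), and its distal colon genes to 20490, within the others (16090 to 26720). Replicate 4 of PND 1 had low signals of goblet cell and distal colon genes: Retnlb stood at 123 against 1798 to 5580 on the other PND 1 arrays, and Clca1 at 78.6 against 846 to 2666. On the same array brush border genes summed to 22610, the highest of the 11, and the small intestine list to 3966, against 2540 to 3067 on the other PND 1 arrays. Whether the arrays numbered 4 held a different part of the gut was not tested. On replicate 1 of PND 1 the liver list (30 genes) summed to 6373, against 2640 to 2887 on the other PND 1 arrays and 2550 to 3443 at E21. Afp (alpha-fetoprotein) stood at 1498 against 51.6 to 95.9 on the other PND 1 arrays, and Apoh (apolipoprotein H) at 1848 against 87.9 to 191. Tf, of the same list, was also highest there (1021). Serpina1 (219) and F2 (117), other members, lay within the range of the other PND 1 arrays. Mean signals of Afp in colon after PND 1 ran from 47.8 (PND 15) to 1065 (PND 2), and all 6 arrays of PND 3 detected it. Whether replicate 1 held liver tissue was not tested. The distal colon genes of replicate 1 summed to 9292, the lowest after replicate 4 (1661). The tests below were also run without each of these arrays, without both arrays numbered 4 and without all 3, and adjusted p-values are given beside calls that were lost. The means at later ages and the promoter shares rest on all arrays. Erythroid, leukocyte, pancreas and mesothelial lists overlapped between the ages in their summed signals. The skeletal muscle list (33 genes, 10 to 16 detected per array) summed to 2407 to 2555 at E21 and 2645 to 3158 at PND 1, and the adipose list (18 genes, 10 to 13 detected) to 2477 to 2557 and 2707 to 3621, with no overlap in either. In whole tissue, a change in the number of cells of a type and a change in the RNA of each cell cannot be told apart.

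Of all probes, 841 (3.73%) passed the test at an adjusted p under 0.01 from limma after the Benjamini-Hochberg correction across the array, and of these 391 (1.74%) were higher at PND 1 and 450 (2.00%) were lower. Read by gene, with the brightest probe of each, 642 of 13337 genes were called (4.81%), 312 of them higher (2.34%) and 330 lower (2.47%). The changes were mostly small, since 181 called genes changed at least 1.5-fold and 25 at least 2-fold, of which 14 rose and 11 fell. Among the 7340 genes detected in every sample of E21 or in every sample of PND 1, 8.43% were called. In 440 of the called genes the 2 ages did not overlap, against 748 of all genes (5.61%). For such a gene the two-sided exact permutation test over the 11 samples gives p = 0.00433, the smallest it can give at these group sizes. Without both arrays numbered 4, 665 probes were called, 550 of them among the 841, and 41.1% were higher. Without all 3 arrays 577 probes were called, 477 of them among the 841, and 42.8% were higher. The lists then held 6 rises in fatty acid oxidation, 13 falls in sterol and fatty acid synthesis, 9 falls in glycolysis and 6 rises in the extracellular matrix. The fit took its spread from all 9 ages of colon. From the 11 arrays alone 426 probes were called, and the lists described below then held 5 rises in fatty acid oxidation, 16 falls in sterol and fatty acid synthesis, 7 falls in glycolysis and 7 rises in the extracellular matrix. The split depends on the scaling. With each array scaled to its 75th percentile the median change of all probes moved to -0.25 on the log2 scale, 3795 probes were called, and 20.3% of them were higher, against 46.5% with quantile normalization. Directions below are therefore relative to the bulk of the probes. No called gene named below turned its direction under any scaling.

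The gene lists were chosen with earlier results of these data known, so the shares and ranks of lists here and below are descriptions. Among the 41 gene lists examined, that of fatty acid oxidation had the highest share of rises. Of its 39 measured genes 10 rose and 0 fell, that is 25.6% against 4.81% of all and 8.43% of detected genes. The median log2 change over the list was 0.11 against 0.0047 over all genes. Cpt1a, the liver-type carnitine palmitoyltransferase that controls the entry of long-chain fatty acids into mitochondria, led the list. Its signals at E21 were 239.8, 291, 349, 208 and 278, and those at PND 1 ran from 746 to 1327 with a median of 1066. Every PND 1 array was higher than every E21 array. The mean went from 273 ± 53.6 to 1057 ± 191 (SD, n = 5 and 6), a 3.87-fold rise (log2 change 1.95, SE 0.16, adjusted p = 5.43e-13). Cpt2, which acts after Cpt1a on the inner mitochondrial membrane, went from 544 to 735 in the mean (1.34-fold, adjusted p = 0.00283).

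The enzymes of the beta-oxidation spiral rose less. Acaa2, the mitochondrial thiolase of the last step, stood at 983, 967, 944, 1301 and 973 at E21 and ran from 1605 to 2654 with a median of 2130 at PND 1, a 2.03-fold rise (log2 change 1.02, SE 0.16, adjusted p = 1.28e-05). Decr1, the dienoyl-CoA reductase needed for polyunsaturated fatty acids, stood at 932, 906, 866, 929 and 881 at E21 and ran from 1448 to 2259 with a median of 1598 at PND 1 (1.89-fold, log2 change 0.92, SE 0.10, adjusted p = 7.16e-09). In both genes the ages did not overlap, and in Acaa2 replicate 5 lay above the other E21 arrays. Eci1 and Eci2, the enoyl-CoA isomerases that handle unsaturated chains, rose 1.53-fold and 1.47-fold, with signals of 529 to 670.5 and 160.2 to 281 at E21 and 721 to 1129 and 301 to 392 at PND 1. The acyl-CoA dehydrogenases Acadl and Acadvl rose 1.37-fold and 1.27-fold, and Hadhb, the thiolase subunit of the trifunctional protein, 1.24-fold. The brightest members that were not called were Acadm, the medium-chain dehydrogenase, with means of 1343 and 1451 (adjusted p = 0.509), and Ucp2, a mitochondrial uncoupling protein, with 1581 and 1390 (adjusted p = 0.207).

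Calls among the smaller rises rested on single arrays. Without both arrays numbered 4 the list held 6 rises, and Eci2, Cpt2, Acadvl and Hadhb were not called (adjusted p 0.0104, 0.0149, 0.013 and 0.012). Leaving out 1 array ended the call of Acadl (without E21 replicate 5 or 6 or PND 1 replicate 4, adjusted p up to 0.0146), of Cpt2 (E21 replicate 6, PND 1 replicate 4 or 5, up to 0.012) and of Acadvl (E21 replicate 2 or 6, PND 1 replicate 1 or 5, up to 0.0311). Without all 3 arrays that stood apart Acadl, Cpt2, Acadvl and Hadhb were not called (0.017, 0.0257, 0.0261 and 0.0226). Cpt1a, Angptl4, Acaa2, Decr1 and Eci1 were called under every alternative run.

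Angptl4, a secreted inhibitor of lipoprotein lipase and a PPAR target, was not above background on any E21 array (49.8, 50.2, 57.0, 46.2 and 62.6) and ran from 108 to 233 with a median of 130.3 at PND 1. The fitted change had an adjusted p of 1.12e-08. Set against the lowest signal that counts as detected on the E21 arrays, it was at least 1.99-fold higher. Replicate 5 of PND 1, at 233, lay apart from the other PND 1 arrays, which ended at 140.7. A second, dimmer probe of the gene gave a log2 change of -0.14 (adjusted p = 0.353), so that the probes disagree.

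Among 34 genes of lipid uptake and storage, 2 rose and 1 fell, and this share of 8.82% is near the 8.43% of detected genes. Cd36, a fatty acid translocase of the plasma membrane, stood at 282, 285, 177, 257 and 395 at E21 and ran from 471 to 865 with a median of 632 at PND 1, 2.32-fold higher (log2 change 1.21, SE 0.19, adjusted p = 1.34e-05). Plin2, which coats lipid droplets, stood at 756, 711, 655, 928 and 847 and ran from 1049 to 1579 with a median of 1190 (1.62-fold, log2 change 0.70, SE 0.11, adjusted p = 6.50e-06). Neither gene overlapped between the ages. Scarb1, the scavenger receptor that takes up cholesterol from high-density lipoprotein, fell from 133 to 102 in the mean (adjusted p = 0.00312), a call lost without E21 replicate 5 (0.0218) or PND 1 replicate 5 (0.0135), or without all 3 arrays that stood apart (0.0198). Cd36 is also a gene of adipocytes and of endothelium, and the summed adipose signal was higher at PND 1, as given above. Of the 18 adipose genes 14 had a positive change, but 0 were called higher and 1 was called lower. The part of these cells in the result was not tested.

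**Figure D1:**
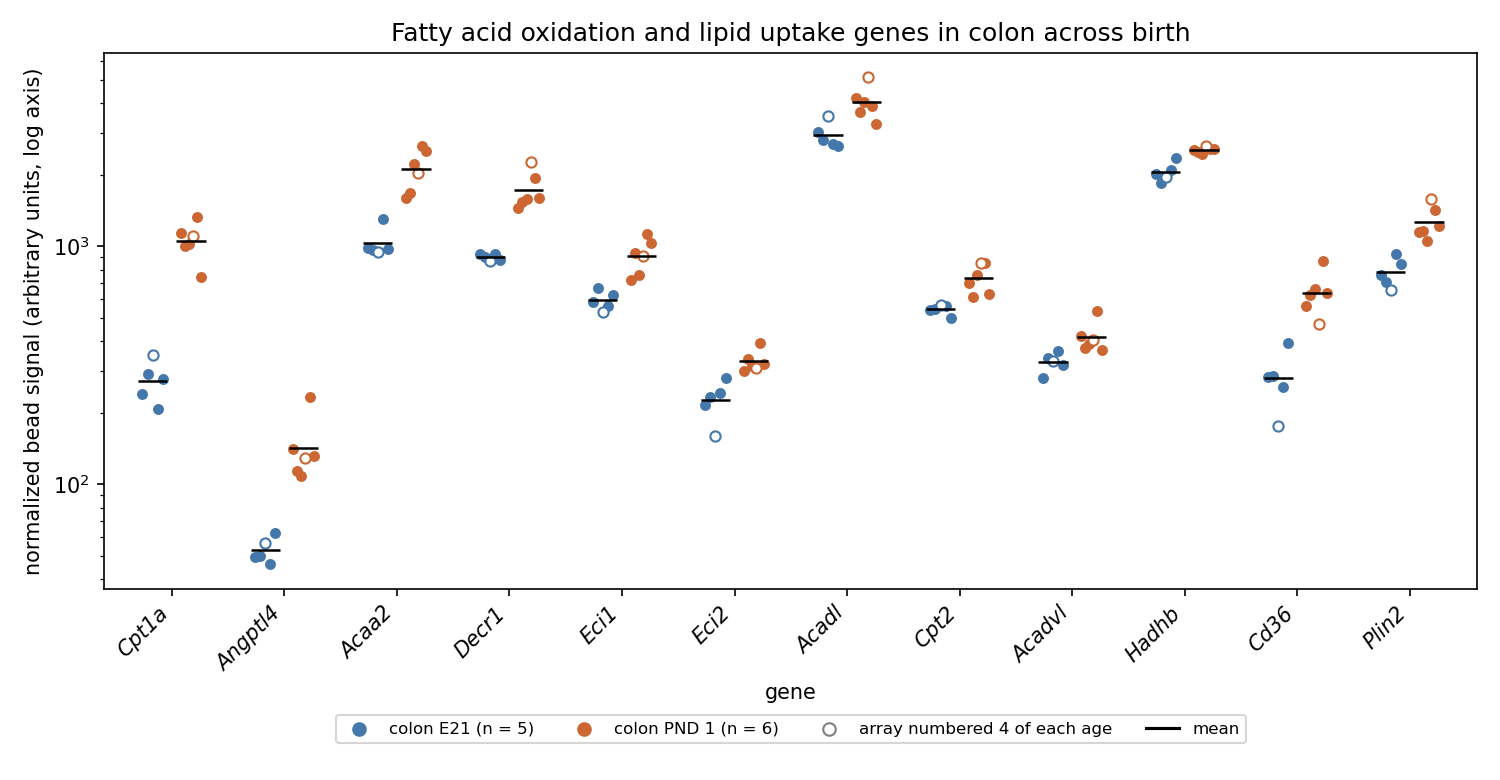
Normalized bead signal (arbitrary units, log axis) of the 10 called fatty acid oxidation genes and of Cd36 and Plin2 on each colon array, E21 in blue (n = 5) and PND 1 in orange (n = 6), with open points for the array numbered 4 of each age and bars for the means. Cpt1a lies at 208 to 349 at E21 and at 745.6 to 1327 at PND 1, and the smaller rises of Acadl, Acadvl and Hadhb lie close together.

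The list with the highest share of falls was that of sterol and fatty acid synthesis. Of its 30 measured genes 18 fell and 0 rose, 60% against 4.81% of all and 8.43% of detected genes, with a median log2 change of -0.59. Scd2, the stearoyl-CoA desaturase that makes monounsaturated fatty acids, showed the largest fall of all genes with a name. Its signals at E21 were 5551, 5502, 5746, 5551 and 5111, and those at PND 1 ran from 1202 to 1607 with a median of 1486. The lowest E21 array was thus far above the highest PND 1 array, with a 3.86-fold lower mean (log2 change -1.95, SE 0.11, adjusted p = 1.27e-19). Scd, the other desaturase on the list, had means of 162 and 78.4 (adjusted p = 0.0213) and was not called.

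The called genes covered the mevalonate pathway from its first steps to cholesterol. Acat2, the cytosolic thiolase that condenses acetyl-CoA, stood at 2804, 3169, 3887, 2822 and 3249 at E21 and ran from 1384 to 1958 with a median of 1549 at PND 1 (1.97-fold lower, log2 change -0.98, SE 0.09, adjusted p = 6.46e-11). Mvd and Idi1, which make and isomerize isopentenyl diphosphate, fell 1.58-fold and 1.83-fold. Fdps, the farnesyl diphosphate synthase, stood at 1199, 1183, 896, 1306 and 1095 at E21 and ran from 417 to 535 with a median of 465 at PND 1 (2.38-fold lower, log2 change -1.25, SE 0.11, adjusted p = 1.09e-12). In Acat2 and Fdps the ages did not overlap, and replicate 4 was the highest E21 array for Acat2 and the lowest for Fdps.

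Squalene is made and oxidized by Fdft1 and Sqle. Fdft1 fell 1.71-fold, with signals of 573 to 639.9 at E21 and 317 to 414 at PND 1, and Sqle 1.74-fold, with signals of 1162 to 1375 at E21 and 564 to 855 at PND 1. After lanosterol, Cyp51 (demethylation), Tm7sf2 (the sterol C14 reductase), Msmo1, Nsdhl and Hsd17b7 (removal of the C4 methyl groups), Ebp (the isomerase), Sc5d (the C5 desaturase) and Dhcr7 (the last reductase) were all called. Dhcr7, which makes cholesterol from 7-dehydrocholesterol, stood at 716, 728, 839, 756 and 760.2 and ran from 333 to 414 with a median of 380.4 (2.01-fold lower, log2 change -1.004, SE 0.09, adjusted p = 8.84e-12). Msmo1 stood at 993, 1009, 942, 919 and 1074 and ran from 410.5 to 605 with a median of 499 (1.97-fold lower, log2 change -0.98, SE 0.11, adjusted p = 2.14e-09). Neither of these overlapped between the ages. Ebp fell 1.64-fold and Tm7sf2 1.66-fold, whereas Nsdhl and Hsd17b7 fell 1.26-fold each and Cyp51, dim at both ages (108 and 77.4), 1.39-fold.

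Genes that supply or control the pathway fell as well. Acss2 and Acly, which make cytosolic acetyl-CoA from acetate and citrate, fell 1.79-fold and 1.44-fold. Srebf1, the gene of SREBP-1, stood at 401, 378, 403, 428 and 391 at E21 and ran from 187 to 349 with a median of 231 at PND 1, 1.67-fold lower (log2 change -0.74, SE 0.13, adjusted p = 5.57e-05), with no overlap. Its highest PND 1 array was replicate 4 at 349, above the other 5 arrays, which ended at 243. The brightest members that were not called were Insig2, which retains SREBP in the endoplasmic reticulum, with means of 308 and 272 (adjusted p = 0.108), Fads1, a desaturase of polyunsaturated fatty acids, with 223 and 246 (adjusted p = 0.483), and Nr1h3, the liver X receptor alpha, with 222 and 168 (adjusted p = 0.0403). Nr1h3 was called without PND 1 replicate 4 (adjusted p = 0.0091). Pcyt2, which makes CDP-ethanolamine for phospholipids and stood outside the list, fell 2.13-fold, from 472, 443, 786, 489 and 473 at E21 to 198 to 321 at PND 1 (log2 change -1.09, SE 0.12, adjusted p = 1.78e-09). The high E21 array was replicate 4, without which, together with PND 1 replicate 4, the log2 change was -0.96.

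Without both arrays numbered 4 the list held 14 falls. Sc5d was high on E21 replicate 4 (772 against 409 to 496.5), and its call was lost without that array (adjusted p = 0.0307) or without PND 1 replicate 2 (0.0191) or 6 (0.0138). The small falls of Cyp51 (lost without E21 replicate 3, 4, 5 or 6 or PND 1 replicate 1, 3 or 5, adjusted p up to 0.0321), Hsd17b7 (E21 replicate 2, 3 or 5 or PND 1 replicate 2 or 3, up to 0.0158) and Nsdhl (E21 replicate 4 or 5 or PND 1 replicate 1 or 3, up to 0.0295) rested on single arrays too. Sc5d (0.0364), Cyp51 (0.0222) and Nsdhl (0.0191) were not called without both arrays numbered 4, and Hsd17b7 was not without all 3 arrays that stood apart (0.0189). Acly was not called without both arrays numbered 4 (adjusted p = 0.0189), nor when arrays were scaled to their 75th percentile (0.0386).

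**Figure D2:**
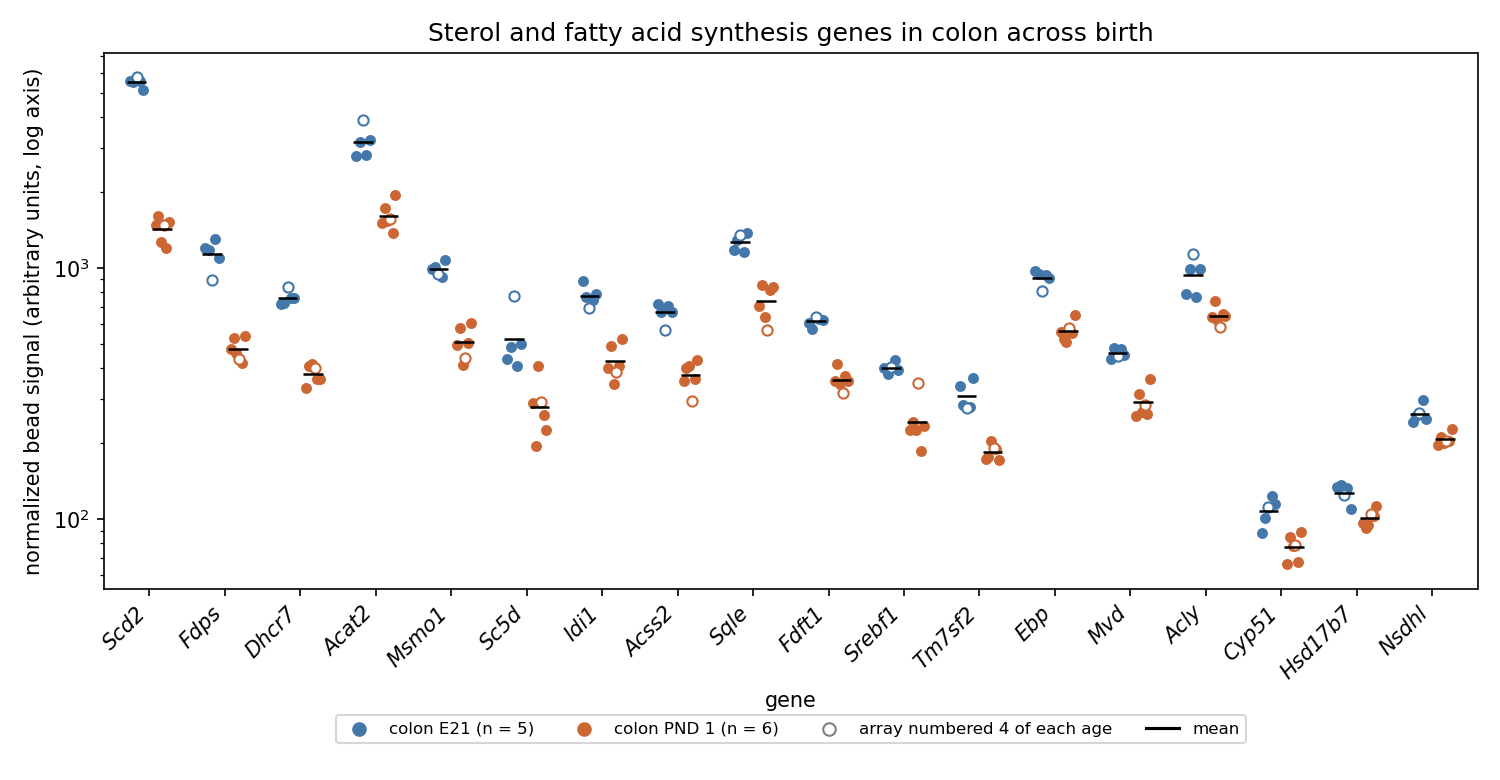
Normalized bead signal (arbitrary units, log axis) of the 18 called sterol and fatty acid synthesis genes on each colon array, E21 in blue (n = 5) and PND 1 in orange (n = 6), open points for the array numbered 4 of each age and bars for the means. All 18 means are lower at PND 1, from 5492 to 1429 for Scd2 down to 262 to 208 for Nsdhl.

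Promoter sequences are printed for 3 of the sterol and fatty acid genes, because genes that fell together can be set side by side there. They are the 180 bases before the start site, read from the RefSeq promoter table of build GRCr8, with the CCAAT box in capitals in either orientation (CCAAT, or ATTGG for the other strand). Fdps lies on the minus strand at chr2:176804817-176804996, Scd2 on the plus strand at chr1:253118197-253118376 and Idi1 on the minus strand at chr17:66547525-66547704.
Fdps: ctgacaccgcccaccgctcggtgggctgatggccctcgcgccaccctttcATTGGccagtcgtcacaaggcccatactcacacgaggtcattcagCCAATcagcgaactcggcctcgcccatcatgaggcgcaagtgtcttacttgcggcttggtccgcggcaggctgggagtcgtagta
Scd2: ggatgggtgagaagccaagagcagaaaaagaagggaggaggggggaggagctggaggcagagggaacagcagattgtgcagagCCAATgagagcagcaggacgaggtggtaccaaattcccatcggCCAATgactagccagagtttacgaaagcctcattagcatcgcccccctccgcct
Idi1: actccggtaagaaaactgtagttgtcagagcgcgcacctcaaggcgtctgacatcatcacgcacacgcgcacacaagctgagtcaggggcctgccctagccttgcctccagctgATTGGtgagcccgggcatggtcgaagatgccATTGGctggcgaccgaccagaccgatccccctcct
Each of the 3 windows holds 2 matches. Of the 18 called genes 16 had an entry in the table, and 13 of these (81.2%) held CCAAT within 250 bases before to 50 bases after the start site, on either strand, against 37.5% of all 33469 promoters. The CCAAT box was chosen after the sequences had been seen. The same windows held ACGTG, the core of the hypoxia response element, in 18.8% (all promoters 19.3%) and AGGTCA, the repeat bound by nuclear receptors, in 12.5% (all promoters 16.2%). A match of letters is a description and not a measured binding site.

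Genes of glycolysis and of the response to low oxygen were lower at PND 1. Of 40 measured genes 11 fell and 0 rose, 27.5% against 4.81% of all and 8.43% of detected genes, with a median log2 change of -0.20. Ldha, the lactate dehydrogenase of glycolytic tissues, stood at 3887, 3840, 2490, 3806 and 3579 at E21 and ran from 1459 to 2461 with a median of 1803 at PND 1, 1.81-fold lower (log2 change -0.86, SE 0.12, adjusted p = 2.61e-06). The ages barely missed each other, since replicate 4 was the lowest E21 array at 2490 and the highest PND 1 array reached 2461. Slc16a3, the lactate exporter MCT4, fell from 396 ± 52.8 to 222 ± 108 (1.93-fold), and PND 1 replicate 5 at 415 overlapped with E21.

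Among the enzymes of the pathway, Gapdh stood at 2602, 2543, 2586, 2739 and 2894 at E21 and ran from 1299 to 1884 with a median of 1465 at PND 1 (1.76-fold lower, log2 change -0.81, SE 0.12, adjusted p = 5.33e-06). Tpi1, the triosephosphate isomerase, stood at 6073, 5836, 5809, 6223 and 6319 and ran from 3499 to 4515 with a median of 4072 (1.5-fold lower, log2 change -0.59, SE 0.08, adjusted p = 9.40e-07). Neither overlapped between the ages. Pgk1 and Aldoa, which make 3-phosphoglycerate and cleave fructose bisphosphate, fell 1.38-fold and 1.37-fold, and Eno1, the enolase, 1.55-fold. Gpi, the second enzyme of the pathway, had means of 4053 and 3735 and was not called (adjusted p = 0.379). Gapdh is often taken as a reference gene of constant level, which these signals do not show across birth.

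Other members of the list that fell were P4ha1 and Ndrg1. P4ha1, the prolyl hydroxylase that modifies collagen, stood at 596, 581, 431, 522 and 518 at E21 and ran from 192 to 262 with a median of 225 at PND 1 (2.36-fold lower, log2 change -1.24, SE 0.13, adjusted p = 8.38e-10), with no overlap. Ndrg1, a gene induced at low oxygen, fell 1.60-fold (adjusted p = 5.78e-04), with overlap. Plod2, a lysyl hydroxylase of collagen, was not called, with means of 1150 and 1056 (adjusted p = 0.747). Aldoc, the aldolase of brain, stood at 1062 on E21 replicate 4 and at 241 to 292 on the other E21 arrays, beside the brain transcripts of that array. Without it the call of Aldoc was lost (adjusted p = 0.0306), as it was without PND 1 replicate 1 (0.0112), and without both arrays numbered 4 the log2 change was -0.47 in place of -0.84. Pfkl, the liver-type phosphofructokinase, went from 374 to 228 (adjusted p = 0.00834) and was not called without E21 replicate 2, 3, 4 or 6 or PND 1 replicate 3, 4, 5 or 6 (adjusted p up to 0.0297). The list held 10 falls without both arrays numbered 4, with Aldoc (0.0252) and Pfkl (0.042) not called. Without all 3 arrays that stood apart, the call of Slc16a3 was lost as well (0.0225).

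**Figure D3:**
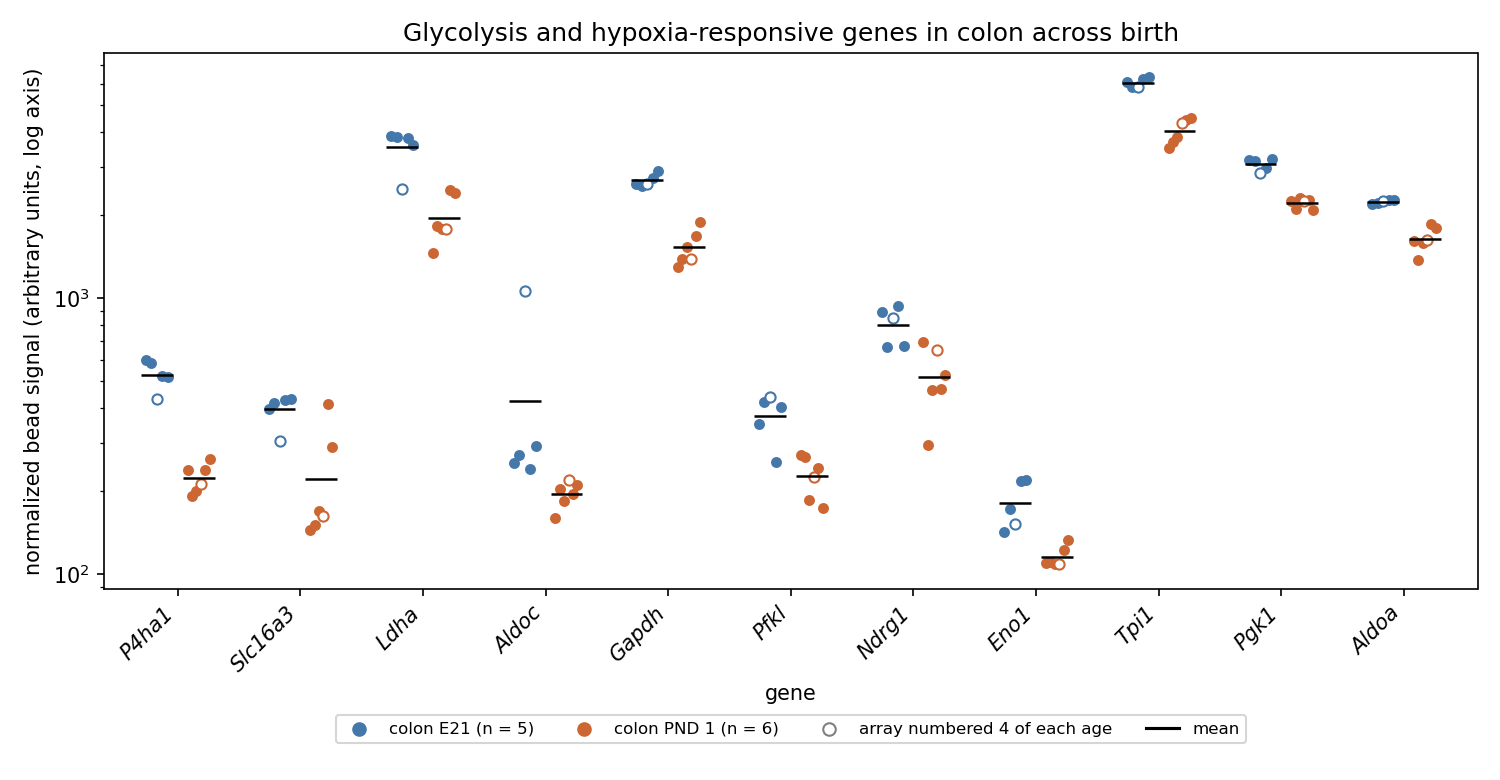
Normalized bead signal (arbitrary units, log axis) of the 11 called glycolysis and hypoxia-responsive genes on each colon array, E21 in blue (n = 5) and PND 1 in orange (n = 6), open points for the array numbered 4 of each age and bars for the means. The open E21 point of Aldoc at 1062 lies above all others of that gene, and Tpi1 is lower at PND 1 on every array.

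The promoter of Ldha is printed as the gene of this list with the most matches to ACGTG, and that of Acadvl as a fatty acid oxidation gene with AGGTCA, both 180 bases before the start site from RefSeq in GRCr8 with the matches in capitals on either strand. Ldha lies on the plus strand at chr1:106507912-106508091 and Acadvl on the minus strand at chr10:55236706-55236885.
Ldha: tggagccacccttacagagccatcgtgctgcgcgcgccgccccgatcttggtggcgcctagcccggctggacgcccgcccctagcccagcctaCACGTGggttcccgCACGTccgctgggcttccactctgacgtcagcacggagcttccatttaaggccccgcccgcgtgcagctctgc
Acadvl: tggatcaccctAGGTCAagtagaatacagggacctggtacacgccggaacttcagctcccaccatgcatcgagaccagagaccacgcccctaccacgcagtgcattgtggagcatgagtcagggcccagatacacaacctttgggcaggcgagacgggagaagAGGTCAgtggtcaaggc
The Ldha window holds 3 matches, of which the first and second overlap on opposite strands, and the Acadvl window 2. Of the 11 called glycolysis and hypoxia-responsive genes 9 had an entry, and 4 of these (44.4%) held ACGTG, against 19.3% of all promoters. Of the 10 called fatty acid oxidation genes 7 had an entry, and 4 (57.1%) held AGGTCA, against 16.2%. None of these 9 and 7 promoters held CCAAT, against 37.5% of all promoters. With so few promoters the shares are descriptions only.

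Cirbp and Rbm3, related RNA-binding proteins known to be induced by mild cold, were among the large rises outside the lists. They are 2 single genes, and no list of cold-inducible genes was examined. Cirbp stood at 236, 239, 178, 233 and 231 at E21 and ran from 476 to 683 with a median of 557 at PND 1, 2.48-fold higher (log2 change 1.31, SE 0.15, adjusted p = 8.73e-09). Rbm3 stood at 1075, 1129, 933, 1127 and 1448 and ran from 2176 to 2508 with a median of 2306 (2.06-fold, log2 change 1.04, SE 0.11, adjusted p = 7.38e-10). The ages were separate in both genes, and replicate 4 was the lowest E21 array of each.

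The largest rise of all genes with a name was that of Sectm1b, a secreted and transmembrane protein of the immune system. It stood at 64.7, 70.6, 92.0, 65.9 and 73.3 at E21, where 3 of 5 arrays detected it, and ran from 160.1 to 801 with a median of 439 at PND 1 (5.51-fold, log2 change 2.46, SE 0.29, adjusted p = 2.64e-08). The PND 1 arrays were thus spread over a wide range, all above E21. A probe that the annotation used here does not name (ILMN_1363947) moved most of all, from a mean of 99.4 (70.5 to 161) to 887 (545 to 1503), with a log2 change of 3.12 (SE 0.22, adjusted p = 6.51e-15). Of the called probes, 185 had no gene name.

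Of the further large rises without overlap, all but Slco2b1 stood outside the lists. Txnip, which binds thioredoxin and limits glucose uptake, stood at 3785, 3469, 3017, 3795 and 2874 at E21 and ran from 5327 to 7397 with a median of 6441 at PND 1 (1.93-fold, log2 change 0.95, SE 0.11, adjusted p = 1.07e-08). Mtch2, a carrier protein of the outer mitochondrial membrane, rose 1.96-fold, with signals of 476 to 538 at E21 and 850.1 to 1148 at PND 1 (adjusted p = 5.43e-13). Fem1b, a substrate receptor of an E3 ubiquitin ligase, rose 2.11-fold, with signals of 137 to 151 at E21 and 205 to 497 at PND 1 (adjusted p = 1.28e-07), and C1s, a protease of the classical complement pathway, 1.92-fold, with signals of 197 to 259.6 at E21 and 407 to 523 at PND 1 (adjusted p = 1.40e-06). Slco2b1, an organic anion transporter of the gut and the 1 called gene among 21 of bile acid transport, rose 2.22-fold, with signals of 165 to 281 at E21 and 307 to 619 at PND 1 (adjusted p = 3.07e-04).

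Of the further large falls, all but Gpt (of the arginine and glutamine metabolism list) stood outside the lists. Spp1, the secreted phosphoprotein osteopontin, stood at 499.7, 462.2, 381, 701 and 469 at E21 and ran from 171 to 292 with a median of 202 at PND 1 (2.37-fold lower, log2 change -1.25, SE 0.23, adjusted p = 1.23e-04). Pon3, a paraoxonase that hydrolyses lactones, stood at 2235, 1795, 2099, 2396 and 1902 and ran from 889.7 to 1082 with a median of 947 (2.14-fold lower, log2 change -1.10, SE 0.14, adjusted p = 6.84e-08). Both were separate between the ages. Fgfbp1, which binds fibroblast growth factors, fell 2.01-fold, with signals of 946 to 1353 at E21 and 342 to 713 at PND 1, and Pik3ap1, an adaptor of phosphoinositide 3-kinase, 2.05-fold, with signals of 180.2 to 278 at E21 and 101 to 137 at PND 1. Anxa8, a member of the annexin family, fell 1.89-fold (adjusted p = 1.01e-05), Bcas1 1.94-fold (adjusted p = 4.98e-04), and Gpt, the alanine aminotransferase, 1.91-fold, with signals of 485 to 601 at E21 and 171 to 406 at PND 1 (adjusted p = 1.47e-05). None of these 7 genes lost its call when 1 array was left out, and Bcas1 lost it without all 3 arrays that stood apart (adjusted p = 0.0291).

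Genes of the extracellular matrix were mostly higher at PND 1. Of 52 measured 11 rose and 1 fell (23.1% against 4.81% of all and 8.43% of detected genes), and 45 of the 52 had a positive change, with a median log2 change of 0.32. Mfap5 and Fbn1, both of elastin-associated microfibrils, and Eln, elastin itself, were among them. Mfap5 stood at 86.9, 124, 71.0, 75.5 and 135 at E21 and ran from 144 to 311 with a median of 246 at PND 1 (2.44-fold, log2 change 1.29, SE 0.22, adjusted p = 5.76e-05). Mgp, the matrix Gla protein that inhibits calcification, stood at 292, 429, 176, 268 and 454 and ran from 558 to 775 with a median of 718 (2.22-fold, log2 change 1.15, SE 0.20, adjusted p = 8.54e-05). Both were separate between the ages, and E21 replicate 4 was the lowest array of each. Col1a1, the main chain of type I collagen, rose 1.73-fold, with signals of 1124 to 1815 at E21 and 1829 to 2715 at PND 1 (adjusted p = 0.00162), with replicate 4 the lowest at both ages. Vcan, the proteoglycan versican, rose 1.80-fold and Postn, periostin, 1.73-fold, both with overlap.

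The brightest members that were not called were Col1a2, the partner chain of Col1a1, with means of 12186 and 16375 (adjusted p = 0.22), and Dcn, decorin, with 3591 and 4546 (adjusted p = 0.242). The 1 fall was P4ha1, given above. The summed signal of the list was lowest on E21 replicate 4 among the E21 arrays (51020, with 67670 the highest) and on replicate 4 among the PND 1 arrays (61770, with 84750 the highest). The list held 7 rises without E21 replicate 4, without PND 1 replicate 2, and without both arrays numbered 4. Calls lost without 1 array were those of Fbn1 (E21 replicate 4, adjusted p = 0.0365, or PND 1 replicate 2, 3 or 5), Eln (E21 replicate 2, 4 or 5 or PND 1 replicate 1, 2, 3 or 5, up to 0.0268), Col6a1, a chain of type VI collagen (E21 replicate 4 or 5 or PND 1 replicate 1 or 2, up to 0.019), and Mmp14, a membrane-bound metalloproteinase (E21 replicate 6, 0.0144). The calls of Eln (0.013), Fbn1 (0.0254) and Mmp14 (0.0152) were lost without both arrays numbered 4, and without all 3 arrays that stood apart those of Mgp (0.0116), Eln (0.0366), Col6a1 (0.0226) and Mmp14 (0.0234). Of 23 smooth muscle genes 4.35% were called (1 higher) and of 27 endothelial genes 7.41% (2 higher), both below the 8.43% of detected genes. Most members of both lists nevertheless had a positive change, 17 of the smooth muscle and 22 of the endothelial genes. Their median log2 changes were 0.23 and 0.16, against 0.0047 over all genes.

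**Figure D4:**
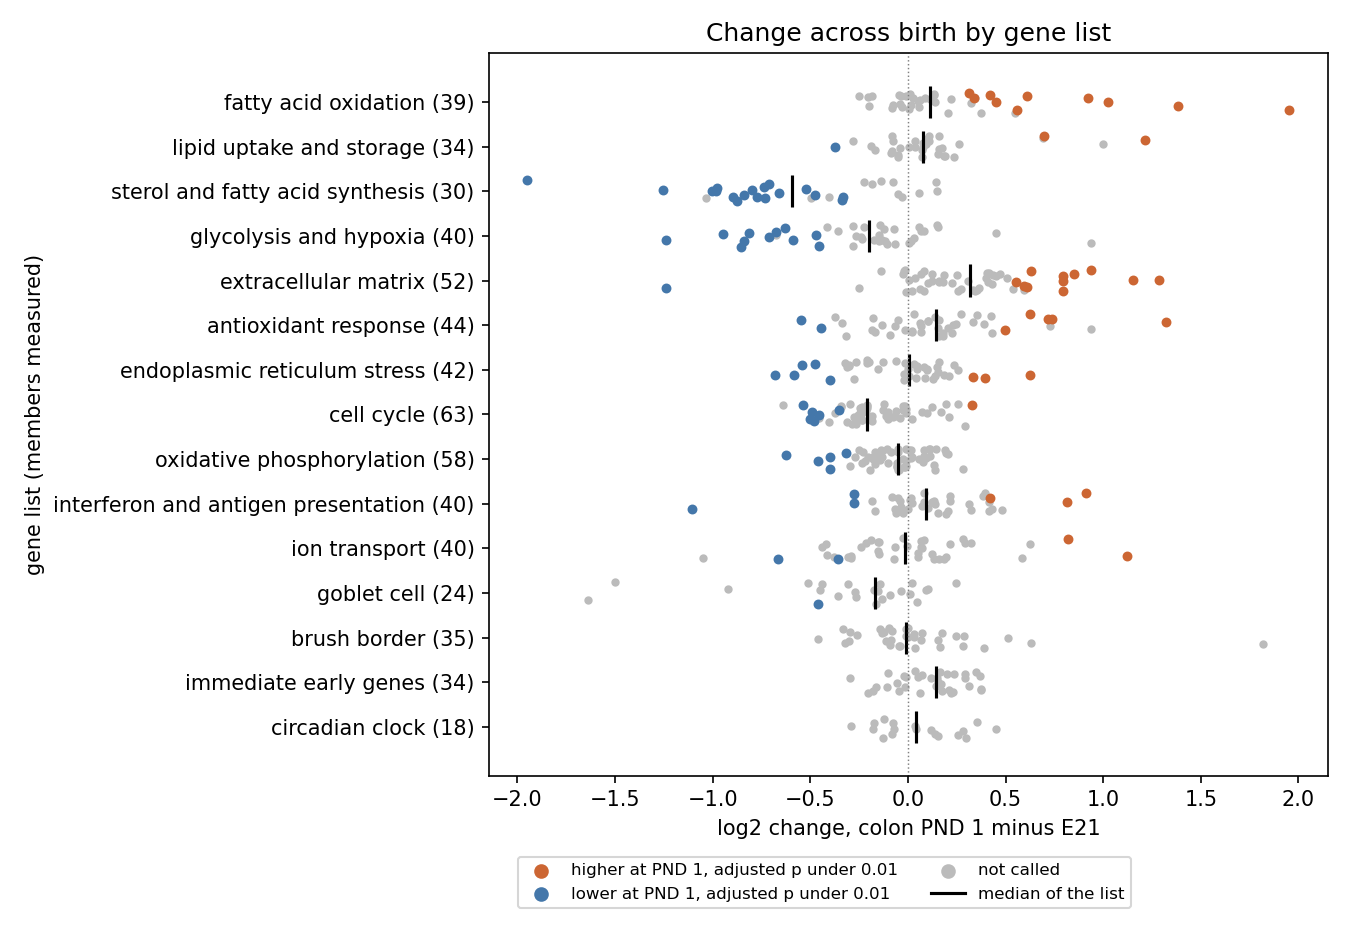
Log2 change in colon from E21 to PND 1 (x axis, positive is higher at PND 1) of each measured member of 15 gene lists (rows, with the number of members), called genes in orange (higher) and blue (lower), others in grey, black bars for list medians. The sterol and fatty acid synthesis list lies to the left with a median of -0.59 and the extracellular matrix list to the right with 0.32.

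Among 44 genes of the antioxidant response 5 rose and 2 fell (15.9% against 4.81% of all and 8.43% of detected genes). Gsta5, a glutathione S-transferase of the alpha class, was not above background on any E21 array (54.6, 67.4, 65.8, 64.8 and 60.1) and ran from 106 to 208 with a median of 166 at PND 1, at least 2.25-fold higher (adjusted p = 6.73e-10). The alpha-class genes are alike in sequence, and the probe may read more than 1 of them. Gclm, a subunit of the enzyme that limits glutathione synthesis, stood at 463, 543, 425, 407 and 457 and ran from 628 to 1065 with a median of 694 (1.67-fold, log2 change 0.74, SE 0.13, adjusted p = 9.13e-05), with no overlap. Gsta3 rose 1.64-fold and Ephx1, the microsomal epoxide hydrolase, 1.54-fold, while Sqstm1, an autophagy receptor, went from 361 to 507 (adjusted p = 0.00362). Gpx1, the glutathione peroxidase, fell 1.46-fold, with signals of 2296 to 2344 at E21 and 1375 to 2066 at PND 1, and Blvrb, a biliverdin reductase, 1.36-fold. Without both arrays numbered 4, 3 of the rises were called and Gsta3 (adjusted p = 0.0253) and Ephx1 (0.0142) were not. Gsta3 was also lost without PND 1 replicate 4 (0.0112), and Sqstm1 without E21 replicate 3, 5 or 6 or PND 1 replicate 3 or 5 (up to 0.02).

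Of 64 genes of drug and bilirubin metabolism 2 rose and 1 fell (4.69%), close to the share of all genes. Ugt1a1, which conjugates bilirubin, stood at 366, 229, 205, 433 and 265 at E21 and ran from 383 to 1472 with a median of 755 at PND 1 (2.58-fold, log2 change 1.36, SE 0.21, adjusted p = 9.00e-06). PND 1 replicate 2, the lowest of its age, overlapped with E21, and replicate 4 was the highest. The exons of Ugt1a genes are shared in part, so that the probe may read others of the cluster.

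Among 40 genes of ion transport 2 rose and 2 fell (10%, against 4.81% of all and 8.43% of detected genes). Sgk1, a kinase that raises sodium absorption and responds to corticosteroids, stood at 558, 572, 1036, 545 and 488 at E21 and ran from 813 to 1969 with a median of 1485 at PND 1 (2.17-fold, log2 change 1.12, SE 0.19, adjusted p = 5.11e-05). E21 replicate 4, at 1036, overlapped with PND 1 and lay above the other E21 arrays, which ended at 572. Slc20a1, a sodium-dependent phosphate transporter, fell 1.58-fold, with signals of 1195 to 1341 at E21 and 722 to 831 at PND 1 (adjusted p = 1.42e-04). Slc26a3, the chloride-bicarbonate exchanger of the colon, went from 119.9 to 219.9 (adjusted p = 0.00559) and was not called without E21 replicate 2, 3 or 6 or PND 1 replicate 1, 3 or 4 (up to 0.0296), nor without both arrays numbered 4 (0.0169). The list held 1 fall without E21 replicate 6 or PND 1 replicate 4.

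Of 18 genes of thyroid hormone metabolism and response 2 rose (11.1%, against 4.81% of all and 8.43% of detected genes). They were Dio1, the deiodinase that activates thyroxine (144 and 253 in the mean, adjusted p = 0.00978), and Thra, a thyroid hormone receptor (873 and 1193, adjusted p = 0.00544), whose highest E21 array was replicate 4 at 1311. The call of Dio1 was lost without any 1 of 9 arrays (all 5 of E21 and PND 1 replicates 2, 4, 5 and 6, up to 0.0365) and without both arrays numbered 4 (0.038), and that of Thra without E21 replicate 2, 3 or 5 or PND 1 replicate 4 or 6 (up to 0.0524). Of 39 genes of enteric neurons and glia 2 were called, a share of 5.13% that is near the 4.81% of all genes. They are the neuropeptides Vip (1.64-fold, adjusted p = 0.00812) and Gal (1.60-fold, adjusted p = 7.85e-04). Vip was not called without E21 replicate 2, 3, 5 or 6 or PND 1 replicate 2 to 6 (up to 0.028), and neither Vip (0.0144) nor Gal (0.0117) was without both arrays numbered 4. Of 40 interferon and antigen presentation genes 3 rose and 3 fell (15%, against 4.81% of all and 8.43% of detected genes), and without 1 array each count went down to 1 (rises without replicate 3, 4 or 6 of E21 or 4 or 6 of PND 1, falls without E21 replicate 2 or PND 1 replicate 3 or 6). RT1-S3, a class I antigen of the rat, rose 1.88-fold, with signals of 87.5 to 116 at E21 and 156 to 229.9 at PND 1 (adjusted p = 3.25e-05), and its probe may also bind transcripts of related class I genes. Cxcl11, a chemokine for T cells, fell 2.15-fold, with signals of 453 to 801 at E21 and 147 to 641 at PND 1 (adjusted p = 7.16e-04), where PND 1 replicate 4 at 641 overlapped with E21 and the other PND 1 arrays ended at 310.2.

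Genes of cell division were slightly lower at PND 1. Of 63 measured, 6 fell and 1 rose (11.1% against 4.81% of all and 8.43% of detected genes), and 10 of the 63 had a positive change, with a median log2 change of -0.21. Plk1, a kinase of mitosis, fell 1.45-fold, with signals of 221 to 360.2 at E21 and 169 to 214 at PND 1 (adjusted p = 6.03e-05), and Cdc20, an activator of the anaphase-promoting complex, 1.39-fold, with signals of 443 to 522 at E21 and 284 to 367 at PND 1 (adjusted p = 8.66e-04). Ccna2, cyclin A2, went from 627 to 444 (adjusted p = 0.00244), with E21 replicate 4 the lowest of its age, and was not called without E21 replicate 5 (0.0153) or 6 (0.0128). The count of the list rested on single arrays, with 14 falls without E21 replicate 4, 3 without E21 replicate 3 or 6 or PND 1 replicate 1, and 2 without E21 replicate 5, and without both arrays numbered 4 it held 11. With scaling to the 75th percentile it held 7 falls and 4 rises.

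Of 58 genes of oxidative phosphorylation and the citrate cycle 5 fell and 0 rose, and this share of 8.62% is near the 8.43% of detected genes, with a median log2 change of -0.05. Ndufb2, a subunit of complex I, fell 1.54-fold, with signals of 2548 to 3169 at E21 and 1637 to 2023 at PND 1 (adjusted p = 7.95e-08), and Atp5me, a subunit of ATP synthase, 1.38-fold, with signals of 6347 to 7021 at E21 and 4497 to 5220 at PND 1 (adjusted p = 2.61e-06). With scaling to the 75th percentile the list held 3 falls and 5 rises, so that its direction depends on the scaling. It held 3 falls without E21 replicate 2 or 5 or PND 1 replicate 1. Of 42 genes of endoplasmic reticulum stress and folding 3 rose and 5 fell (19% against 4.81% of all and 8.43% of detected genes), which became 2 falls without E21 replicate 3 or PND 1 replicate 4, 3 falls without replicate 2 or 6 of E21 or 2 or 3 of PND 1, and 1 rise without E21 replicate 4 or PND 1 replicate 3. The chaperones Hsp90b1 (1.61-fold lower, with signals of 2324 to 2848 at E21 and 1298 to 1897 at PND 1) and Calr (1.5-fold lower, with signals of 5006 to 5887 at E21 and 3011 to 4651 at PND 1) fell, and Slc7a5, a transporter of large neutral amino acids, rose 1.54-fold, with signals of 89.1 to 105 at E21 and 131 to 190.4 at PND 1. None of these 3 overlapped between the ages.

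Several lists held no call or few. No gene was called among 35 brush border genes, 34 immediate early genes, 18 circadian clock genes, 29 enteroendocrine genes, 40 genes of junctions and keratins and 48 leukocyte genes. A single gene was called in each of the goblet cell (24), defence (55), morphogen (59) and foetal growth (37) lists. Retnlb, a goblet cell product, had means of 6385 ± 1068 and 3195 ± 1988 and was not called (adjusted p = 0.0273), with PND 1 replicate 4 far below the rest. It was called without PND 1 replicate 5 (0.00953). A p above the threshold does not show that these genes were alike at both ages. In simulated data the test called 71% of changes of 1.5-fold and 94% of those of 2-fold. These changes were set only in probes brighter than the detection limit, with independent normal noise and no outlying array. The shares therefore do not hold for dim members of these lists or for a gene spread like Retnlb.

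The change in colon was set against that in brain, where 6 samples at E21 and 6 at PND 1 gave 808 called probes (3.59%) and 609 called genes (4.57%). The difference of the changes, colon minus brain, passed the test for 118 probes (0.524%) and 94 genes (0.705%), of which 60 were also called in colon. For Cpt1a, Postn, Sgk1 and Mgp the colon change lay above the brain change, with differences of 1.52, 1.17, 1.16 and 1.14 on the log2 scale. A difference alone does not give the direction in brain. For Cpt1a the brain change was 0.43 and the difference was 1.52 (SE 0.21, adjusted p = 6.12e-07). The colon change lay below the brain change for Scd2, Bcas1 and Acss2, with differences of -1.74, -1.02 and -0.90. The test of the difference was also passed by Angptl4, Fgfbp1, Gsta3, Gsta5, Mfap5, Sectm1b and Ugt1a1, for which no size is given because the probe was not above background on any array of at least 1 of the 4 groups.

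For other genes the difference did not pass the test. Rbm3 had a log2 change of 1.04 in colon and 1.21 in brain, with a difference of -0.17 (SE 0.14, adjusted p = 0.745). Mtch2 had 0.97 and 0.77, with a difference of 0.20 (SE 0.10, adjusted p = 0.437), and Txnip 0.95 and 0.79, with 0.16 (SE 0.18, adjusted p = 0.843). These 3 genes were called in both tissues. Among the sterol genes, Acat2 (-0.98 and -0.76), Msmo1 (-0.98 and -0.65) and Ebp (-0.71 and -0.72) fell in both, whereas for Scd2, Dhcr7, Acss2 and Srebf1 the difference passed the test. The brain samples of E21 came from pups of the same dam as the colon samples, so that the 2 tissues are not independent of it.

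The later ages show where the levels at PND 1 lie in the course of suckling, as means ± SD of 6 arrays with no test. Cpt1a went from 273 ± 53.6 at E21 to 1057 ± 191 at PND 1, stood at 688 ± 127 at PND 5 and at 1264 ± 163 at PND 22. E21 was the lowest of the 9 ages for 9 of the 10 called fatty acid oxidation genes, all but Cpt2, and PND 1 was the highest for 4 of them. These genes were chosen for a level higher at PND 1 than at E21, so that the counts are a description. Scd2 stayed between 1429 and 2066 at all 8 later ages. Msmo1 and Fdps were higher again at PND 3. Msmo1 was at 988 ± 60.5 at E21, 505 ± 75.6 at PND 1 and 955 ± 69.4 at PND 3, and Fdps at 1136 ± 154, 474 ± 48.1 and 721 ± 92.9. Pon3 was at 2085 ± 244 at E21, 972 ± 76.2 at PND 1 and 1900 ± 402 at PND 2.

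Ldha was lowest at PND 1 (1953 ± 397) and stood at 2964 ± 288 at PND 2 and 3491 ± 447 at PND 22. PND 1 was the lowest of the 9 ages for 6 of the 11 called glycolysis and hypoxia-responsive genes and for 5 of the 18 called sterol and fatty acid synthesis genes, of which 13 were highest at E21. Since these genes were chosen for a level lower at PND 1 than at E21, the counts are a description. Cirbp was highest at PND 1 (555 ± 77.4) and stood at 377 ± 84.3 at PND 2 and 161 ± 34.0 at PND 22. Rbm3 had a level at PND 7 (2470 ± 88.0) near that at PND 1 (2326 ± 115). Fem1b (323 ± 99.3 at PND 1, 188 ± 40.9 at PND 2) and Mtch2 (976 ± 112 and 658 ± 77.9) were lower again 1 day later. Sgk1 went on to 5464 ± 968 at PND 22 and Spp1 down to 78.8 ± 6.93.

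**Figure D5:**
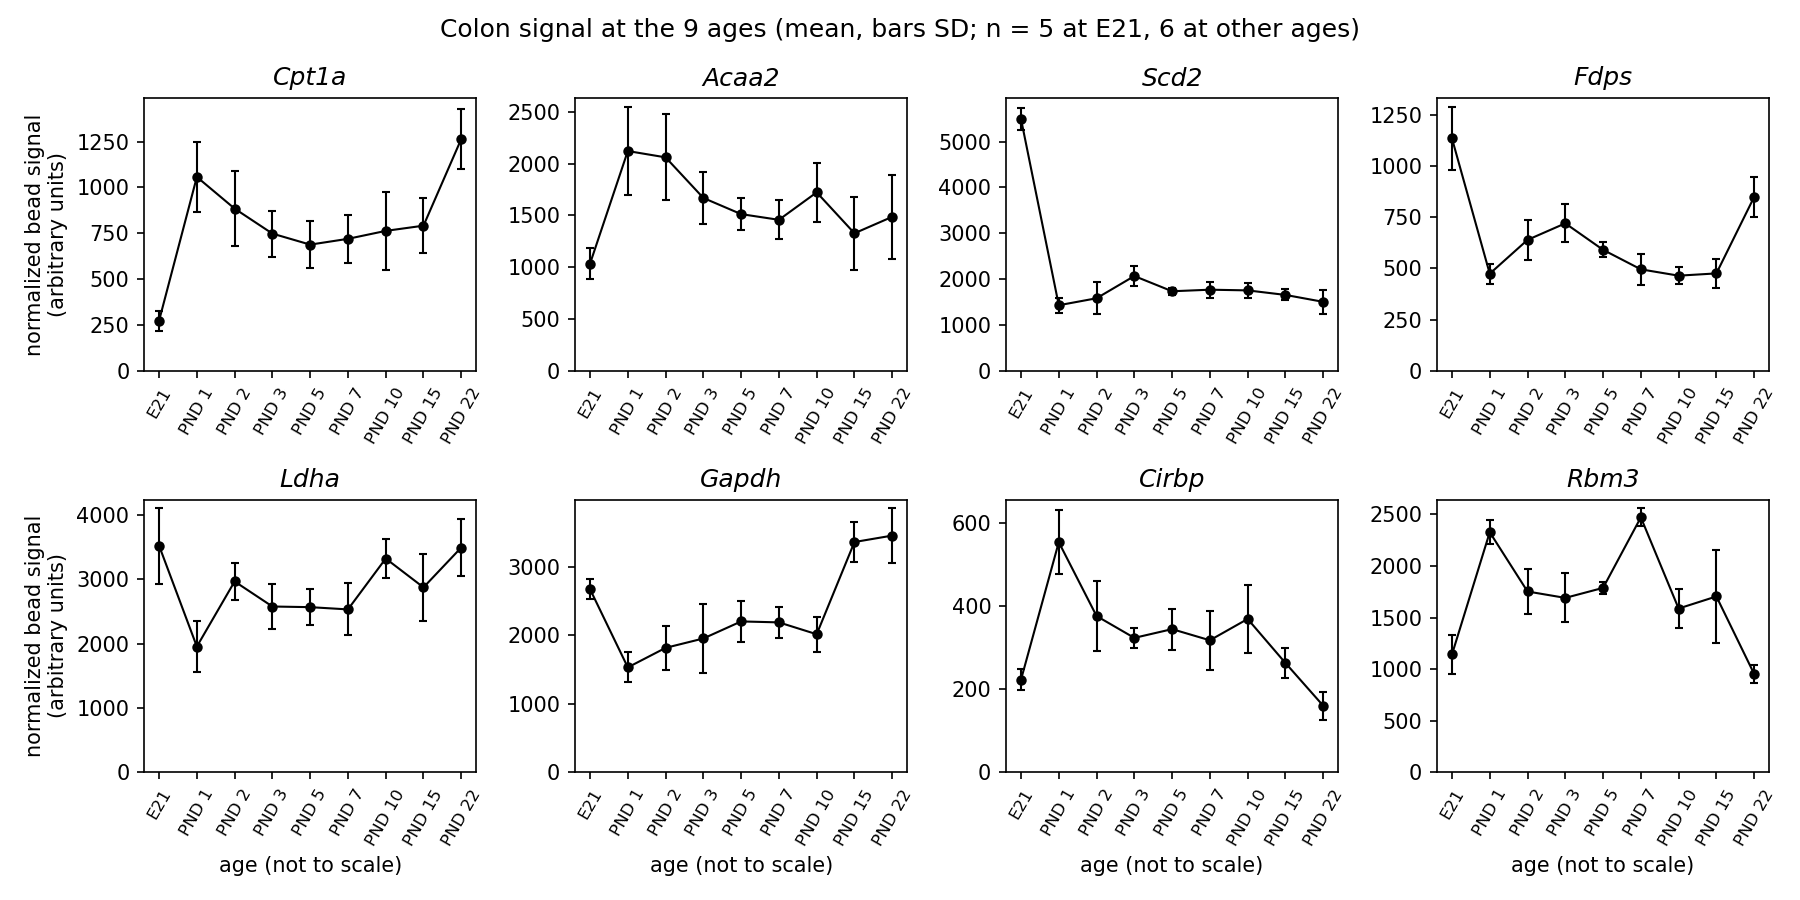
Normalized bead signal in colon (y axis, arbitrary units, from 0) of 8 genes at the 9 ages in order (x axis, not to scale), points for means and bars for SD (n = 5 at E21, 6 at other ages). Scd2 drops from 5492 to 1429 and stays low, Cirbp peaks at PND 1 with 555, and Ldha dips at PND 1 to 1953.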

How the data were processed

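Colon and brain RNA of rats at 9 ages was hybridized by the authors to RatRef-12 bead arrays of 22523 probes. The authors deposited a bead signal intensity and a detection p-value for each probe and sample, unnormalized. Their own normalized values were deposited separately, and were put on the log2 scale here and used as an alternative. One E21 colon array was left out by the authors as an outlier and is not analysed here. In the present work the intensities were quantile-normalized over all arrays, floored at 1 and put on the log2 scale. Each probe was fitted with limma 3.58.1 in R 4.3.3 with a mean for each age over 53 colon arrays (for the difference from brain, each tissue and age over all arrays), and p-values were adjusted by the Benjamini-Hochberg method over all probes. A call is an adjusted p under 0.01, and detection is a detection p under 0.05. The number of arrays limits the precision.

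Probes were named from the platform annotation, in which 13793 probes had 1 symbol and 8730 had none, and 13752 matched a RefSeq gene. A gene was read from its brightest probe, which gave 13337 genes. The self-test on simulated data of 22523 probes, with changes set only in probes brighter than the detection limit, called 71% of changes of 1.5-fold and 94% of those of 2-fold. Genes of sialic acid metabolism were left aside. The members and the gene lists were chosen with earlier results of these data known. Genes were named by a rule: the 15 largest rises and 15 largest falls without overlap, up to 8 called and 3 bright uncalled members of each list, and the 6 largest differences from brain in each direction. Not every gene that the rule names is described. Scd, the remaining called members of the 3 metabolic lists, and the genes that describe the arrays that stood apart were named after their values had been seen. The alternatives were another background correction, scaling, filter, variance model, threshold, sample set, replicate block and the methods' ANOVA, and each array of the compared ages was left out in turn. Leaving out arrays jointly was chosen after seeing the data.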

Additional observations from a re-analysis of the deposited data

Results flagged for a closer look

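Single arrays lay far from the rest of their age in 17 of 202 sets of 5 or 6 arrays (101 genes at both ages), where chance gives about 10. Of these 8 were replicate 4 of E21 and 3 were replicate 4 of PND 1, arrays described above as standing apart. On replicate 4 of E21 the signals far from the other arrays were Sc5d at 772, Aldoc at 1062, Pcyt2 at 786, Sgk1 at 1036 and Atp5me at 7021, all above the rest of E21. Slc16a3 at 305.2, Ldha at 2490 and Cirbp at 178 lay below the rest of E21 on the same array. The high signals of genes that fell enlarge the change, as for Sc5d, Aldoc and Pcyt2, and the low ones of Slc16a3 and Ldha make it smaller. On replicate 4 of PND 1 the signals apart were Srebf1 at 349 and Cxcl11 at 641, both above the other PND 1 arrays, and Col1a1 at 1829, below them. The others were Angptl4 at 233, Acadvl at 536 and Pik3ap1 at 137 on PND 1 replicates 5, 5 and 6, and Acaa2 at 1301, Slc20a1 at 1341 and Fem1b at 137 on E21 replicates 5, 5 and 2.

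For 30 of the named genes the change across birth differed between colon and brain by the test of the difference itself. The size is given for 23 of them, as the colon change minus the brain change on the log2 scale. Among the lipid genes the difference was 1.52 for Cpt1a, 1.17 for Cd36, 0.75 for Plin2, 0.72 for Decr1 and 0.65 for Eci1. It was -1.74 for Scd2, -0.90 for Acss2, -0.76 for Pcyt2, -0.71 for Srebf1 and -0.57 for Dhcr7, all genes of lipid synthesis or its control. Matrix genes gave 1.17 for Postn, 1.14 for Mgp, 1.13 for Col1a1 and 0.93 for Vcan, and -0.69 for the collagen hydroxylase P4ha1. For Ephx1, of detoxification, it was 0.74. Genes of transport and of other functions gave 1.23 for Slco2b1, 1.16 for Sgk1 and 0.92 for C1s, and on the negative side -1.02 for Bcas1, -1.001 for Pon3, -0.80 for Pik3ap1 and -0.70 for Slc20a1. For the other 7 genes (Angptl4, Fgfbp1, Gsta3, Gsta5, Mfap5, Sectm1b and Ugt1a1) no size is given, since the probe was not above background on any array of at least 1 of the 4 groups compared. Brain arrays detected Cd36 and Slco2b1 on 9 of 12 and Pon3 on 3 of 12, so that the brain levels of these genes lie near the background.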

How the results depend on the processing

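Of 841 probes called in colon, 391 higher and 450 lower, the count stayed within 1.5 times with normexp background correction (883), the authors' normalized values (833), quantiles taken in colon and brain apart (835), detected probes alone (963), a floor of 16 (841) and trended robust moderation (750). Scaling to the 75th percentile gave 3795 calls in colon (771 higher and 3024 lower), 217 for the difference between tissues and 432 in brain, with a median shift of -0.25 over all probes. A minimum of 1.5-fold gave 227 (108 and 119), and 94 in brain. An adjusted p under 0.05 gave 1713 (828 and 885), 318 for the difference between tissues and 1662 in brain. The fit of only the ages compared gave 426 (193 and 233) and 74 for the difference between tissues. Leaving out both arrays numbered 4 and PND 1 replicate 1, chosen after seeing the data, gave 577 (247 and 330). In the methods' ANOVA, 1950 probes passed both the F test over the ages and the contrast of PND 1 with E21, each at an unadjusted p under 0.01. The contrast alone called 2347 probes unadjusted and 763 after Benjamini-Hochberg adjustment.

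Leaving out 1 array gave 588 to 764 calls in colon (265 to 366 higher, 309 to 446 lower), 94 to 142 for the difference between tissues and 557 to 765 in brain. No pairing by replicate number was seen between E21 and PND 1 colon. The deviations of equally numbered arrays correlated at -0.141 to 0.113, and only replicate 4 of E21 correlated best with its own number. All E21 pups came from 1 dam, so the check could not show a pairing by litter. With the replicate block 825 probes were called, 775 of them among the 841. It ended the calls of Cyp51 (adjusted p = 0.0104), Pfkl (0.012), Eln (0.0116) and Vip (0.0107).

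Of the 101 genes checked, 41 lost a call under at least 1 alternative. The fit of only the ages compared lost Slc16a3 (adjusted p = 0.0319), Ndrg1 (0.047), Bcas1 (0.0129), Sgk1 (0.0101), Ugt1a1 (0.0152), Cxcl11 (0.035) and Calr (0.0109). It also lost Aldoc (0.132), Sc5d (0.0101), Eln (0.0116), Fbn1 (0.0331), Slc26a3 (0.0486), Dio1 (0.0224), Gsta3 (0.0119) and Pfkl (0.0128). The other calls lost there were those of Eci2, Acadl, Cpt2, Acadvl, Hadhb, Cyp51, Hsd17b7, Nsdhl, Ephx1, Ccna2, Scarb1, Thra and Sqstm1. Scaling to the 75th percentile ended the calls of Pgk1 (0.012), Aldoa (0.0273), Ccna2 (0.0186) and Nsdhl (0.0177). It turned the sign of 3 uncalled genes, Ucp2 (0.014 on the log2 scale), Gpi (0.074) and Plod2 (0.070). The cause was not tested. The deposited intensities still hold the background of the array, so that folds of dim genes are compressed.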
